A study of Mus musculus with 4 samples.

Results

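The 78 genes described here code for collagen chains (43), laminin chains (10) and integrin subunits (25), of 20828 genes named on the array. Membership follows the symbol. Taken were genes whose names start with Col and a digit, with Lama, Lamb or Lamc and a digit, or with Itga or Itgb. The integrin-binding proteins that carry similar names were left out. This rule was set with earlier results of these data known. The cells were B16-F10, a mouse melanoma line, sorted by the amount of the receptor Met on their surface into Met-low and Met-high populations and then cultured separately for 3 days. Each population was measured on 2 one-colour Agilent arrays, Met-low replicates 1 and 2 and Met-high replicates 1 and 2. Both populations came from 1 cell line, with no transgene or drug named for them, and were grown in the same serum-containing medium, so the values describe cultured tumour cells with no host tissue around them. RNA came from 2 separately prepared samples of each population. The p-values set the difference between populations against the spread between samples within each population. That spread is drawn toward the spread of all genes tested. The number of arrays limits the precision. All arrays shared 1 slide and 1 scan, with Met-low at positions 1 and 2 and Met-high at positions 3 and 4, so that position and population cannot be told apart.

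Collagens are secreted chains that wind around one another into a helix and then build fibrils, sheets or the links between them. Laminins are cross-shaped proteins made of an alpha, a beta and a gamma chain, and together with type IV collagen they form the sheet-like basement membrane. Integrins are surface receptors made of an alpha and a beta subunit, which bind these proteins outside the cell and connect to the actin skeleton within it. In melanoma, the set of integrins on a cell has long been studied for its part in adhesion, migration and spread to other organs.

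Values are log2 signals relative to the 75th percentile of the array, so that 0 is the level below which 75% of the spots lie, and a log2 ratio is the Met-high mean minus the Met-low mean. Since each probe has its own brightness, a value is compared between arrays for the same gene and not between genes. The 75th percentile lay between 858 and 1331 intensity units, at most 53.6% of spots on an array were marked well above background by the scanner software, and 0 spots were saturated. Of all genes, 11955 (57.4%) stood well above background on both replicates of Met-low or of Met-high cells and were tested with limma. Met itself, the protein used for sorting, read -0.26 and -0.89 in Met-low cells and 1.03 and -0.43 in Met-high cells, which overlap, at a log2 ratio of 0.87 ± 0.51 (SE) with limma's adjusted p = 0.333. The 7 melanocyte markers (Tyr, Tyrp1, Dct, Pmel, Mlana, Mitf, Sox10) were above background on all 4 arrays, and 0 of them passed the test at 0.05. Of their log2 ratios, the lowest was -0.14, for Mitf, and the highest 0.53, for Sox10.

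Of the 78 genes, 38 (48.7%) passed the same filter, 17 of 43 collagens, 7 of 10 laminin chains and 14 of 25 integrins. On all 4 arrays 34 genes were above background, and on no array 30. Col10a1 was above background on both Met-low arrays and on neither Met-high array. Col20a1 and Itga8 were above it on both Met-low arrays and 1 Met-high array, and Lamc3 on both Met-high arrays and 1 Met-low array. These 4 genes entered the test through 1 population, so a difference between the populations helped to select them. The other 10 (Col1a1, Col3a1, Col6a1, Col6a2, Col6a6, Col18a1, Col25a1, Lamb3, Itga11 and Itgb7) were above background on some arrays without reaching both of either population, and were not tested.

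**Figure D1:**
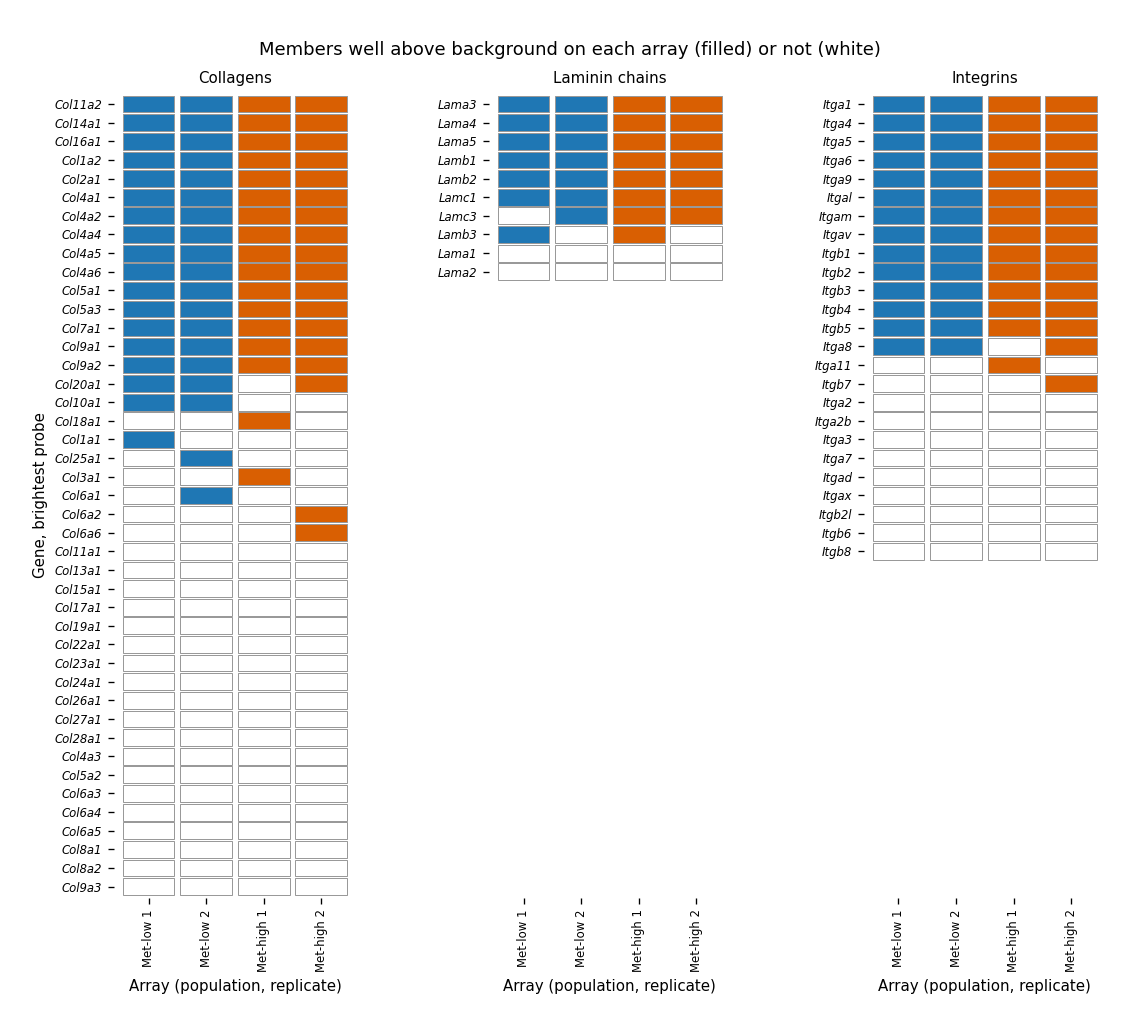
Detection of the 78 genes on the 4 arrays, by family. Each row is a gene, represented by its brightest probe, and each column an array; a filled cell (blue for Met-low, orange for Met-high) means that the signal was marked well above background, and a white cell that it was not. A block of 15 collagens, 6 laminin chains and 13 integrins is filled throughout, and 19, 2 and 9 are white throughout.

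Among the collagens, the genes on no array included Col4a3 of the type IV network, Col5a2 of type V, Col6a3, Col6a4 and Col6a5 of the beaded filaments of type VI, both chains of type VIII (Col8a1 and Col8a2), and Col17a1, a collagen that spans the membrane of basal skin cells. The remaining collagens on no array were Col9a3, Col11a1, Col13a1, Col15a1, Col19a1, Col22a1, Col23a1, Col24a1, Col26a1, Col27a1 and Col28a1. Lama1 and Lama2, the alpha chains of the early embryo and of muscle and nerve, were on no array. Among the integrins the same held for Itga2 and Itga3, receptors for collagen and for laminin, for Itga7, the laminin receptor of muscle, for Itga2b of platelets, for Itgad, Itgax and Itgb2l of leukocytes, and for Itgb6 and Itgb8, whose best known task is to release TGF-beta from its latent form. A signal at background does not show that a gene was silent.

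At an adjusted p under 0.05 (limma, Benjamini-Hochberg over all genes tested, two-sided), 4 of the 38 genes (10.5%) were higher in Met-low cells, namely Col10a1, Col9a1, Col1a2 and Col14a1. Over all genes tested this share was 3.82% (457 genes). Col4a4 and Itga5, 2 of the 38 (5.26%), were higher in Met-high cells, beside 1.95% (233 genes) over all. Scaled on the 75th percentile of detected probes alone, all genes split into 595 and 140 and the members into 4 and 1. That scaling placed the median log2 ratio of all genes at -0.05, where it was 0.10 with all spots, and it lowers every ratio given here by the difference between them. A 2-fold difference of the means, taken without a test, was met by 6 genes (15.8%) in favour of Met-low cells and by 4 (10.5%) in favour of Met-high cells, where 5.29% and 2.43% of all genes met it. Met-low and Met-high arrays did not overlap for 15 genes (39.5%) higher in Met-low cells and for 10 (26.3%) higher in Met-high cells, and overlapped for 13. Over all genes, 22.6% were higher without overlap in Met-low cells and 35.7% in Met-high cells. At an unadjusted p under 0.05 the counts were 10 (26.3%) and 7 (18.4%), where all genes had 11.9% and 14.3%. Since the filter had helped to select 4 of the genes, counts were also taken over the 34 that were above background on all 4 arrays. Past the test, 3 of these were higher in Met-low cells and 2 in Met-high cells. Under that filter the shares of all 11220 genes past the test were 3.57% and 1.96%. At 2-fold the 34 held 4 and 3 genes, and the share of all genes at 2-fold was not taken there. The counts without overlap include all 4 genes that the filter helped to select. Those at an unadjusted p include Col10a1, Col20a1 and Lamc3.

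**Figure D2:**
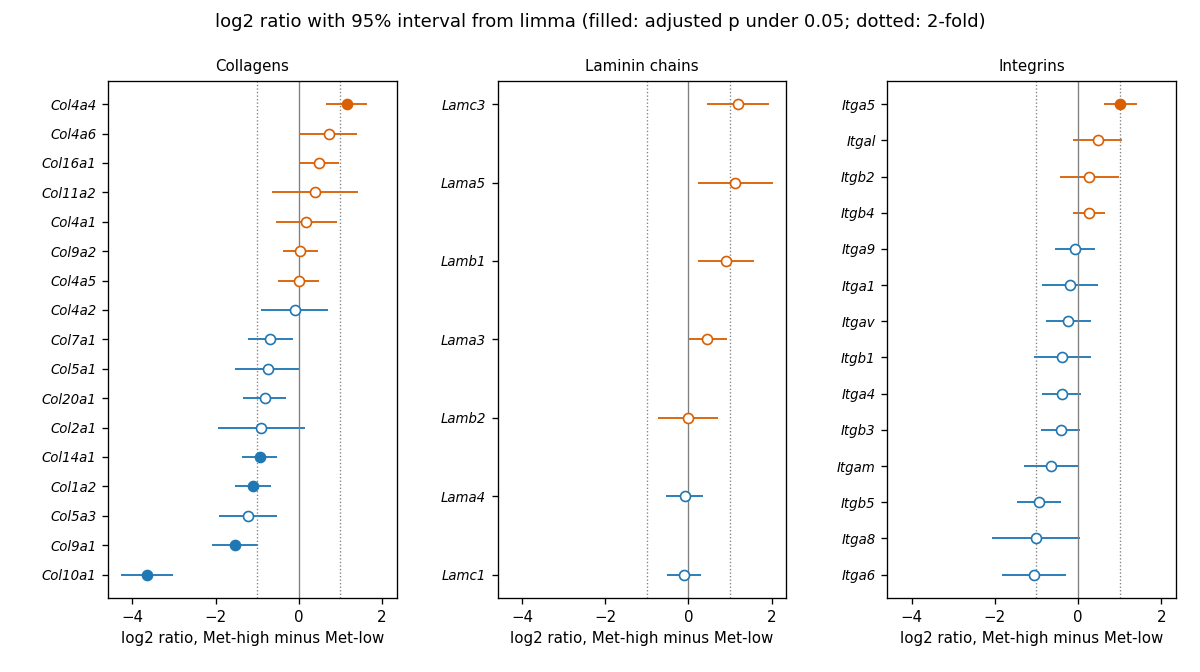
Log2 ratio of Met-high over Met-low cells for the 38 genes that passed the filter, by family (x axis, log2 units). Points are the ratios from limma with their 95% confidence intervals, filled where the adjusted p was under 0.05, blue below 0 and orange above it, and dotted lines mark a 2-fold difference. Col10a1 at -3.65 lies farthest from 0, and the 6 filled points have intervals that keep clear of it.

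The collagens had a median log2 ratio of -0.69 over their 17 tested genes, where all genes tested had 0.10. Across the other 4 scalings tried, this median lay between -0.83 and -0.20. Col10a1 and Col20a1, at log2 ratios of -3.65 and -0.82, entered the test through Met-low cells and are part of this median. Among the 15 collagens above background on all 4 arrays, Col4a2 at -0.10 lies in the middle. Both Col10a1 and Col20a1 count below among the genes higher in Met-low cells. Of the 17, 10 had the higher mean in Met-low cells, 4 of them past the test, and 7 had the higher mean in Met-high cells, 1 of them past the test. The genes past the test belonged to different kinds of collagen, with a fibril chain, sheet-forming chains and chains that decorate fibrils among them.

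Col10a1 (NM_009925), the single chain of type X collagen, forms hexagonal sheets in cartilage that is turning into bone. Its probe read -2.60 and -3.21 in Met-low cells and -6.61 and -6.50 in Met-high cells. Both Met-low arrays lay far above both Met-high arrays, which were not well above background. The ratio is therefore limited by the background, at a measured log2 ratio of -3.65 ± 0.24 (SE) and an adjusted p of 0.00657. Set against the dimmest signal that each Met-high array still separated well from background, the Met-low signal of Col10a1 was 4.58-fold higher. That limit is not strict, since Itga7 was brighter on both Met-high arrays (-4.88 and -4.77) and not marked well above background. In bulk RNA, less signal per cell and fewer cells with a signal cannot be told apart. Under the normexp background correction, which adds an offset of 50, the log2 ratio was -1.24 (adjusted p = 0.026). When a single array was dropped, the log2 ratio of Col10a1 stayed between -3.96 and -3.34. Those fits kept the filter that Col10a1 had passed through Met-low cells alone, so they do not check that selection. With no filter on dim probes, Col10a1 did not pass limma's test (log2 ratio -3.65, adjusted p = 0.0747). That setting called 7 genes of all 20828. The promoter window of the gene, 250 bases before its start and 50 after it in RefSeq (GRCm38.p6, chr10:34389731-34390030, plus strand), is printed because Col10a1 had the largest ratio of the 38 genes. Capitals mark a TATA box (TATAAA), which begins 32 bases before the start.

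Col10a1: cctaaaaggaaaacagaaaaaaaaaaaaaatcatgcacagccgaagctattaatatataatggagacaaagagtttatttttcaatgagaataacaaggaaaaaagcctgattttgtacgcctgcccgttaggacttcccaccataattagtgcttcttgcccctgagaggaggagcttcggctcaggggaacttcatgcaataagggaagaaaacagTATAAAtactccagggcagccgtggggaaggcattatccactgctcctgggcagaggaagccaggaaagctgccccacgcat

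Col1a2 (NM_007743) codes for the alpha chain that joins with Col1a1 in the type I fibrils of skin, bone and tendon. It read -0.97 and -0.73 in Met-low cells and -2.0 and -1.89 in Met-high cells. The groups did not overlap, and the replicates lay close together, with an SD of 0.17 and 0.08 (n = 2 each). The log2 ratio was -1.10 ± 0.17 (SE, adjusted p = 0.0311), a 2.14-fold higher signal in Met-low cells. With Met-low replicate 1 or 2 left out the adjusted p came to 0.0641 and 0.101, and with Met-high replicate 1 or 2 left out to 0.0696 and 0.0647, so that the call needs all 4 arrays. Its partner Col1a1 read -3.65 and -5.0 in Met-low cells and -6.01 and -6.04 in Met-high cells. Only Met-low replicate 1 was above background for Col1a1, which was not tested. The Col1a2 window (GRCm38.p6, chr6:4505368-4505667, plus strand) is printed to set it against that of Col10a1, with 61.0% G and C where Col10a1 has 44.3%. Capitals mark 2 GC boxes (GGGCGG, searched on both strands, CCGCCC where on the other strand), which begin 205 and 188 bases before the start.

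Col1a2: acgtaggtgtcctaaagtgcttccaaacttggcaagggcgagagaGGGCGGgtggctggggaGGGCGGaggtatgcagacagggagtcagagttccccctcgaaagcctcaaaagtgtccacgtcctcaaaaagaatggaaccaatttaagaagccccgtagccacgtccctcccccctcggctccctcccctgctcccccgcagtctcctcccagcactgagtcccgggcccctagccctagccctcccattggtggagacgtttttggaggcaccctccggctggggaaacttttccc

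Among the other fibril collagens, 4 were tested and 0 passed. Col5a3, a chain of the type V collagen that helps to start type I fibrils, read -0.21 and -0.93 in Met-low cells and -1.65 and -1.91 in Met-high cells, without overlap. Its log2 ratio of -1.21 ± 0.28 (SE) passed 2-fold but not the test (adjusted p = 0.0728). It passed the test only when Met-low replicate 2 was left out, with a log2 ratio of -1.57 and an adjusted p of 0.0237, among the 4 arrays left out in turn. Without Met-low replicate 1 the ratio was -0.85 (adjusted p = 0.187), and with a mean-variance trend Col5a3 passed the test at 0.0472. Col5a1, the chain found in nearly every type V molecule, had a log2 ratio of -0.75 ± 0.31 (SE, adjusted p = 0.2). Col2a1, the cartilage fibril chain, had -0.90 ± 0.41 (SE, adjusted p = 0.242), and Col11a2, which associates with it, 0.40 ± 0.41 (SE, adjusted p = 0.573). The 95% interval of Col11a2 ran from -0.64 to 1.43, and without Met-low replicate 2 its ratio turned to -0.12. Col3a1 and Col11a1, the chains of type III and type XI fibrils, were not tested.

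Collagens that lie on the surface of fibrils and interrupt their own helix made up another group. Col9a1 (NM_007740), a chain of the type IX collagen that decorates cartilage fibrils, read -1.46 and -1.67 in Met-low cells and -3.32 and -2.87 in Met-high cells. The arrays of each population stayed close and the populations did not overlap. The log2 ratio was -1.53 ± 0.22 (SE, adjusted p = 0.0241), a 2.89-fold higher signal in Met-low cells. A second Col9a1 probe was not above background on any array, and the mean of both probes gave -0.81 (adjusted p = 0.151). Without Met-low replicate 1 the ratio was -1.43 with an adjusted p of 0.0625. Col9a2, which shares the molecule with Col9a1, had a log2 ratio of 0.04 ± 0.17 (SE, adjusted p = 0.891) and a 95% interval from -0.38 to 0.47, within 2-fold. Col9a3 was on no array.

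Col14a1 (NM_181277), a chain that regulates how fibrils grow in dense connective tissue, read -2.78 and -2.97 in Met-low cells and -3.77 and -3.87 in Met-high cells. The groups were tight and apart, with a log2 ratio of -0.94 ± 0.16 (SE) and an adjusted p of 0.0397, the highest among the 6 genes past the test. A second Col14a1 probe was on no array, at a log2 ratio of -0.41, and the mean of both probes gave -0.68 (adjusted p = 0.095). Col14a1 also lost the call under quantile normalization (adjusted p = 0.0658) and with every probe by itself (0.0543). It missed the threshold without each of Met-low replicates 1 and 2 (0.169 and 0.0834) and Met-high replicates 1 and 2 (0.0758 and 0.131), and with the normexp correction (log2 ratio -0.53, adjusted p = 0.12). Col20a1, another fibril-associated chain, had 2 probes past the filter with log2 ratios of -0.82 and -1.33. The brighter one over the 4 arrays gave an adjusted p of 0.0873, and the mean of both probes gave -1.08 and passed the test (0.0345). Col16a1 went the other way on the 2 of its 3 probes that passed the filter, at log2 ratios of 0.49 and 0.53. Its brightest probe, at 0.49, did not pass the test (adjusted p = 0.186). The remaining Col16a1 probe was above background on replicate 1 of each population alone, at a log2 ratio of -0.51. The mean of the 3 probes gave 0.17 (adjusted p = 0.783). Col7a1, which forms the anchoring fibrils beneath the epidermis, had a log2 ratio of -0.69 ± 0.22 (SE, adjusted p = 0.133).

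Of the 6 type IV chains, 5 were above background on all 4 arrays, and 1 passed the test. Col4a1 and Col4a2 are the chains of the type IV collagen present in nearly all basement membranes. Col4a1 read -2.06 and -2.63 in Met-low cells and -1.88 and -2.45 in Met-high cells, which overlap. Its probe is spotted 10 times on each array, with a standard deviation over the spots of 0.052 to 0.126, well below the difference between replicates. The log2 ratio was 0.18 ± 0.29 (SE, adjusted p = 0.721), and that of Col4a2 was -0.10 ± 0.32 (SE, adjusted p = 0.874). The sign of Col4a1 turned without Met-low replicate 2 or Met-high replicate 1 (-0.10 each), and that of Col4a2 without Met-low replicate 1 (0.31) or Met-high replicate 2 (0.12). Their 95% intervals, from -0.55 to 0.91 and from -0.90 to 0.71, lie within 2-fold on either side. In RefSeq the genes start head to head on opposite strands, and their promoter windows overlap by 78 bases. The Col4a1 window (GRCm38.p6, chr8:11312777-11313076, minus strand) is printed for this overlap. Capitals mark its GC box, on the other strand.

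Col4a1: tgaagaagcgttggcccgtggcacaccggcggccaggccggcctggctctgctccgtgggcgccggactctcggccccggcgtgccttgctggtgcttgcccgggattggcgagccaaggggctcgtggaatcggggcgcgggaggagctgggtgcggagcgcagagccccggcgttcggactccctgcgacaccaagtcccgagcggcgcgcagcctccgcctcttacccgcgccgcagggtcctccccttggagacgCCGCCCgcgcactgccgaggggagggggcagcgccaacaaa

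Col4a4 (NM_007735) is a chain of the type IV collagen of kidney filter, lung and eye, built with Col4a3 and Col4a5. It read -4.02 and -3.65 in Met-low cells and -2.78 and -2.59 in Met-high cells. All Met-high arrays lay above all Met-low arrays. The log2 ratio was 1.15 ± 0.20 (SE, adjusted p = 0.0388), a 2.22-fold higher signal in Met-high cells. Its other 2 probes were not above background on any array, and the mean of the 3 probes gave a log2 ratio of 0.14 (adjusted p = 0.617). Leaving out Met-low replicate 1 (adjusted p = 0.132) or Met-high replicate 2 (0.103) ended the call. It was also lost with the percentile over detected probes (log2 ratio 1.0, adjusted p = 0.051) and with the normexp correction (0.67, adjusted p = 0.0531). Of its partners, Col4a3 was on no array, and Col4a5 read -1.95 and -2.24 in Met-low cells and -1.95 and -2.23 in Met-high cells. Col4a5 thus gave nearly the same values in both populations, with a log2 ratio of 0.01 ± 0.20 (SE, 95% interval -0.49 to 0.50). Col4a6, which lies head to head with Col4a5 on the X chromosome with 842 bases between their windows, had 0.72 ± 0.27 (SE, adjusted p = 0.176). The Col4a4 window (GRCm38.p6, chr1:82586800-82587099, minus strand) is shown because Col4a4 is the collagen that was higher in Met-high cells and because the start of Col4a3 lies inside it. It holds none of the 5 motifs searched, and therefore no capitals.

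Col4a4: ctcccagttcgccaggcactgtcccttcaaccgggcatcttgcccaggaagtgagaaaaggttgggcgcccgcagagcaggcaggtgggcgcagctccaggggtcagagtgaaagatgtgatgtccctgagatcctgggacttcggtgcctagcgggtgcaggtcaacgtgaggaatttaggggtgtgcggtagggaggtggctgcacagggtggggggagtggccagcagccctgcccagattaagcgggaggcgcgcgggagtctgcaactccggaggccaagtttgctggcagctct

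Chains of types VI, XVIII and XXVII were not tested. The beaded filament chains Col6a1, Col6a2 and Col6a6 were each above background on a single array, Met-low replicate 2 for Col6a1 and Met-high replicate 2 for Col6a2 and Col6a6. Col18a1, the collagen from which endostatin is cut, was above background on Met-high replicate 1 alone, and Col27a1 on no array.

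**Figure D3:**
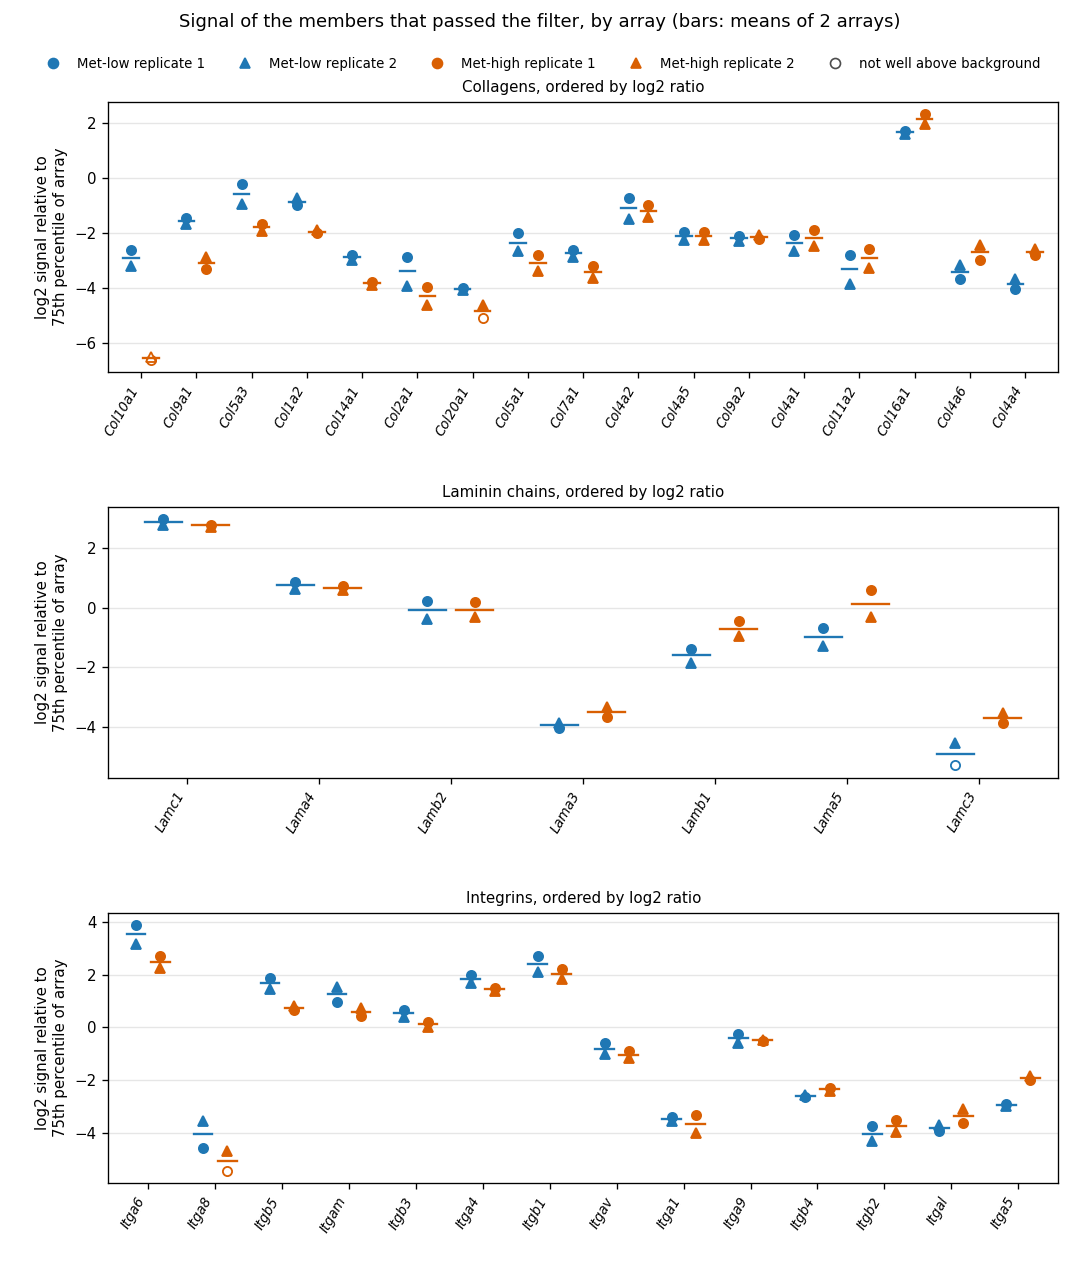
Log2 signal relative to the 75th percentile of the array (y axis) of the 38 genes that passed the filter (x axis, by family and in order of their log2 ratio). Circles are replicate 1 and triangles replicate 2, blue for Met-low and orange for Met-high cells, open where the signal was not well above background, and bars are the means of 2 arrays. The blue and orange points of Col10a1, Col9a1, Col1a2, Col4a4 and Itga5 are apart by more than the spread of either pair, while those of Col4a5, Lamb2 and Itga9 lie together.

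Of the 7 laminin chains tested here, 0 passed limma's test after adjustment. The median log2 ratio of the 7 was 0.46, and between 0.31 and 0.64 under the other 4 scalings. At an unadjusted p under 0.05, 3 of the 7 (Lama5, Lamb1 and Lamc3) were higher in Met-high cells, beside 14.3% of all genes. Lamc3 entered the test through Met-high cells. Lama3, an alpha chain of epithelial basement membranes, read -4.03 and -3.86 in Met-low cells and -3.65 and -3.32 in Met-high cells. The 4 arrays lay close together without overlap, at a log2 ratio of 0.46 ± 0.19 (SE, adjusted p = 0.203). Lamb3, a beta chain, was above background on replicate 1 of each population and on no other array.

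Lama5, Lamb1 and Lamc3 had higher means in Met-high cells without passing the test. Lama5, the alpha chain most widespread in adult basement membranes, read -0.69 and -1.29 in Met-low cells and 0.58 and -0.30 in Met-high cells. The groups did not overlap, but the replicates were spread, with an SD of 0.42 and 0.62 (n = 2 each). Its log2 ratio was 1.13 ± 0.36 (SE, adjusted p = 0.134), which became 1.57 with an adjusted p of 0.0437 when Met-high replicate 2 was left out and 0.69 with an adjusted p of 0.254 when Met-high replicate 1 was. Lamb1, a beta chain of many embryonic and adult basement membranes, had 0.90 ± 0.26 (SE, adjusted p = 0.116). Lamc3, a gamma chain of narrow distribution, read -5.28 and -4.52 in Met-low cells and -3.87 and -3.53 in Met-high cells. These do not overlap, at a log2 ratio of 1.2 ± 0.30 (SE, adjusted p = 0.0842), and without Met-low replicate 2 the ratio was 1.58 (adjusted p = 0.0272). Without Met-low replicate 1 it was 0.82 (adjusted p = 0.223).

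Lama4, Lamb2 and Lamc1 were close between the populations. Lamc1, the gamma chain of most laminins, read 2.96 and 2.77 in Met-low cells and 2.79 and 2.72 in Met-high cells, which overlap. Its log2 ratio of -0.11 ± 0.16 (SE) had a 95% interval from -0.52 to 0.31. Lama4, the alpha chain of vessel walls, had -0.09 ± 0.17 (SE, 95% interval -0.53 to 0.35). Lamb2, the beta chain of kidney and neuromuscular junction, had 0.00 ± 0.28 (SE, 95% interval -0.72 to 0.72), and its sign turned under each of the other 4 scalings. None of these intervals reaches a 2-fold difference.

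The integrins had a median log2 ratio of -0.30 over 14 tested genes, between -0.45 and -0.21 under the other 4 scalings. Of these, 10 had the higher mean in Met-low cells and 4 in Met-high cells, under every scaling tried. The 10 include Itga8, which entered the test through Met-low cells. The test passed 1 gene, Itga5 in favour of Met-high cells, and 0 in favour of Met-low cells, where 3 had an unadjusted p under 0.05, beside 11.9% of all genes.

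Itga5 (NM_010577) pairs with Itgb1 to form the main receptor for fibronectin. It read -2.89 and -2.98 in Met-low cells and -1.98 and -1.85 in Met-high cells. The replicates were close, with an SD of 0.06 and 0.09 (n = 2 each), and the groups did not overlap. The log2 ratio was 1.02 ± 0.16 (SE, adjusted p = 0.0309), a 2.03-fold higher signal in Met-high cells. With Met-low replicate 1 or 2 left out the adjusted p came to 0.0985 and 0.101, and with Met-high replicate 1 or 2 left out to 0.0531 and 0.102, so this call also needs all 4 arrays. Itgb1, the beta subunit shared by most matrix-binding integrins, read 2.71 and 2.10 in Met-low cells and 2.22 and 1.84 in Met-high cells, which overlap (log2 ratio -0.38 ± 0.27, SE, adjusted p = 0.419). A second Itgb1 probe had a log2 ratio of -0.80. Fn1, fibronectin itself, had -0.54 ± 0.47 (SE, adjusted p = 0.5). The Itga5 window (GRCm38.p6, chr15:103366742-103367041, minus strand) is shown as that of the integrin that passed the test. Capitals mark 2 GC boxes on the other strand, which begin 149 and 6 bases before the start.

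Itga5: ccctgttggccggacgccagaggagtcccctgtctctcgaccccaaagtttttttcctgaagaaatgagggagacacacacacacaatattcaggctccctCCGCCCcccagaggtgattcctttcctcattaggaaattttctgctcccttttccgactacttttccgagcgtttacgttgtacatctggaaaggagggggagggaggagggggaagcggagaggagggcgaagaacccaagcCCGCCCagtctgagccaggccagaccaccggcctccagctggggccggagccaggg

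Integrins that bind laminin or collagen came next. Itga6, the laminin receptor that joins Itgb4 in the anchoring points of epithelia and Itgb1 elsewhere, read 3.89 and 3.18 in Met-low cells and 2.72 and 2.24 in Met-high cells. The groups did not overlap, yet Met-low replicate 2 lay nearer to Met-high replicate 1 than to Met-low replicate 1. The log2 ratio of -1.05 ± 0.30 (SE) exceeded 2-fold and did not pass the test (adjusted p = 0.113). Without Met-low replicate 1 it was -0.70 and without Met-low replicate 2 it was -1.41. Itgb4 had 0.26 ± 0.16 (SE, adjusted p = 0.339), and its 95% interval from -0.13 to 0.66 lies apart from that of Itga6, from -1.82 to -0.29, although the difference between the 2 genes was not tested. Itga1, a collagen receptor, had -0.19 ± 0.27 (SE, adjusted p = 0.688). Itga11, a receptor for fibrillar collagen, was above background on Met-high replicate 1 alone and was not tested.

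Subunits of other receptors for vitronectin, fibronectin, tenascin and nephronectin did not pass the test. Itgb5, a partner of Itgav, read 1.89 and 1.46 in Met-low cells and 0.65 and 0.82 in Met-high cells. The groups did not overlap, and the log2 ratio was -0.94 ± 0.21 (SE, adjusted p = 0.0673), which passed with a mean-variance trend (0.0394). Itgb3, another partner of Itgav and long studied in melanoma, had -0.42 ± 0.18 (SE, adjusted p = 0.219), and Itgav itself -0.23 ± 0.22 (SE, adjusted p = 0.532) with a second probe at -0.54. Itga8, which binds nephronectin with Itgb1, read -4.57 and -3.54 in Met-low cells and -5.44 and -4.69 in Met-high cells. Met-high replicate 1 was not well above background, and Met-high replicate 2 came close to Met-low replicate 1. The log2 ratio of Itga8 was -1.02 ± 0.42 (SE, adjusted p = 0.205), and came to -0.50 without Met-low replicate 2 and to -1.53 without Met-low replicate 1. Itga4, which binds the vessel protein VCAM and fibronectin, had -0.39 and -0.40 on 2 probes (adjusted p = 0.246 for the brighter). Itga9, a tenascin receptor, had -0.07 ± 0.19 (SE, adjusted p = 0.839).

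The leukocyte integrins Itgal, Itgam and Itgb2 were above background on all 4 arrays as well. Itgam read 0.95 and 1.54 in Met-low cells and 0.45 and 0.75 in Met-high cells, with no overlap and a log2 ratio of -0.65 ± 0.25 (SE, adjusted p = 0.188). Itgal had 0.47 ± 0.23 (SE, adjusted p = 0.266), and Itgb2, the beta subunit that both need at the surface, 0.27 ± 0.28 (SE, adjusted p = 0.57). Of 8 markers of leukocytes and platelets, 2 were tested (Csf1r and Cd3e) and 0 passed, while 5 were on no array, among them Ptprc, Cd79a and Lyz2. Their summed level, as log2, came to 1.89 and 1.74 in Met-low cells against 2.40 and 1.84 in Met-high cells. The part of such cells in these signals was not tested.

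Of the markers of other cells that make matrix, those of fibroblasts were mostly at background. Of 7 fibroblast markers, 6 were on no array (Pdgfra, Twist2, Thy1, Fap, Dpt and Mfap5). The exception, Pdpn, which other cells also express, was higher in Met-high cells at a log2 ratio of 2.45 ± 0.31 (SE, adjusted p = 0.0189). The summed log2 level of the list, which rests on Pdpn, was -0.19 and 0.57 in Met-low cells and 2.43 and 2.69 in Met-high cells. The part of fibroblasts in the collagen signals was not tested. Of 7 endothelial markers 3 were tested and of 7 keratinocyte markers 2, with 0 past the test in either list. On no array were 4 endothelial markers (Cdh5, Tek, Emcn and Cldn5) and 2 keratinocyte markers (Krt1 and Dsp). Kdr and Vwf of endothelium and Trp63 of keratinocytes were above background on all 4 arrays. Pecam1 and Krt14 were above it on 3 arrays, Krt5 on 2, and Krt10 and Dsg3 on 1. The part of endothelial cells and keratinocytes in the signals was not tested.

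Genes that work with collagens, laminins and integrins were read from 4 lists of 120 genes, of which 119 were on the array and 84 were tested. Higher in Met-low cells past the test were 2 of the 84, Nid2 and Loxl1, and higher in Met-high cells 0, where 3.82% and 1.95% of all genes were. Loxl1 was above background in Met-low cells alone, so a difference between the populations helped to select it. At an unadjusted p under 0.05 the lists held 8 (9.52%) and 7 (8.33%) genes in these directions, below the 11.9% and 14.3% of all genes. The 2-fold difference was met by 5 (5.95%) in favour of Met-low cells, near the 5.29% of all genes, and by 0 in favour of Met-high cells.

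Basement membrane partners had a median log2 ratio of -0.53 over 14 tested genes. At an unadjusted p under 0.05 (limma), 5 were higher in Met-low cells and 2 in Met-high cells, beside 11.9% and 14.3% of all genes. Nid2, a nidogen that bridges laminin and type IV collagen, read -2.21 and -2.55 in Met-low cells and -4.23 and -4.53 in Met-high cells. These groups lie far apart, at a log2 ratio of -2.0 ± 0.21 (SE, adjusted p = 0.0118). Its relative Nid1 had -0.68 ± 0.16 (SE, adjusted p = 0.0765). Hspg2, the proteoglycan perlecan, read 2.19 and 1.61 in Met-low cells and 0.72 and 0.64 in Met-high cells, without overlap, at -1.22 ± 0.24 (SE, adjusted p = 0.0517). Thbs1, a matrix protein that holds back vessel growth, had -1.03 ± 0.26 (SE, adjusted p = 0.0845). Higher in Met-high cells were Efemp2, at 0.68 ± 0.20 (SE, adjusted p = 0.112), and Thbs3, at 0.56 ± 0.18 (SE, adjusted p = 0.131).

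Among the enzymes and chaperones that make and cross-link collagen, 24 were tested with a median of 0.10, the same as over all genes. Loxl1, which cross-links elastin and collagen, read -4.31 and -4.46 in Met-low cells and -5.67 and -6.07 in Met-high cells, where it was above background on neither array. Against the limit used for Col10a1, which is not strict, Loxl1 was 1.65-fold higher in Met-low cells. The measured log2 ratio was -1.49 ± 0.20 (SE, adjusted p = 0.0222). Loxl1 lost the call under the normexp correction (log2 ratio -0.35, adjusted p = 0.305), the mean of its probes (0.127), a mean-variance trend (0.0673) and without Met-low replicate 1 (-1.41, adjusted p = 0.059), whereas Nid2 kept it in these, at a log2 ratio of -1.10 (adjusted p = 0.033) under normexp. The proteins that link integrins to actin gave a median of 0.01 over 36 genes and 0 past the test, 2 and 1 at an unadjusted p under 0.05. Src, a kinase at these sites, read -3.11 and -4.48 in Met-low cells and -3.67 and -6.04 in Met-high cells, which overlap, so that its log2 ratio of -1.06 ± 0.85 (SE, adjusted p = 0.467) passed 2-fold on widely spread arrays. Other receptors for matrix, such as Cd44, the syndecans and Dag1, had a median of 0.08 over 10 genes, with 0 at an unadjusted p under 0.05.

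**Figure D4:**
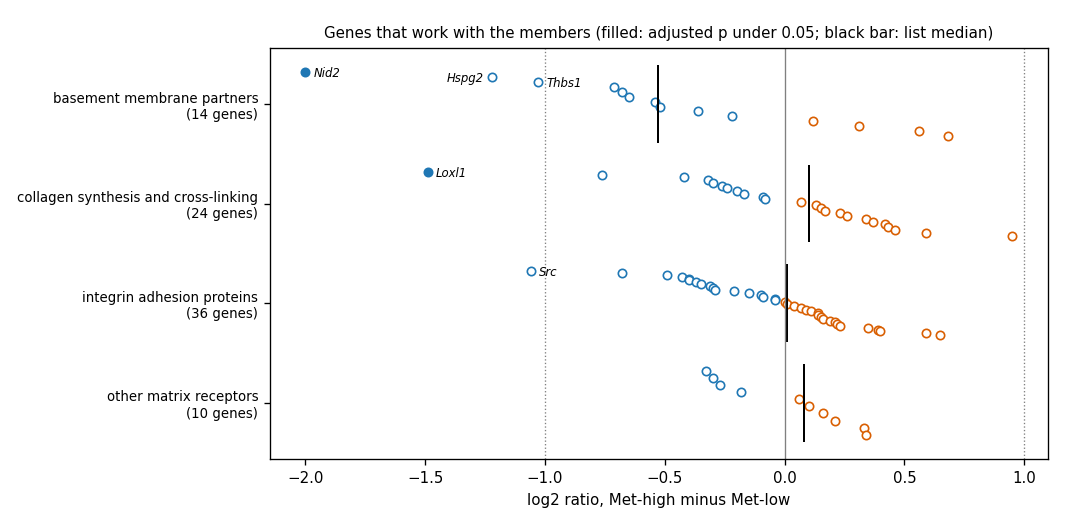
Log2 ratio of Met-high over Met-low cells (x axis, log2 units) for the 84 tested genes that work with the collagens, laminins and integrins, by list (y axis, with the number tested). Each point is a gene, filled where the adjusted p was under 0.05, black bars are list medians and dotted lines mark a 2-fold difference. Nid2 and Loxl1 are filled, and the list medians lie at -0.53 for the basement membrane partners and between 0.01 and 0.10 for the others.

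Promoter windows were found for 58 of the 78 genes, 64 windows of 300 bases in all. The GC box GGGCGG stood in 54.7% of them, beside 35.7% of all 32851 windows, and the TATA box TATAAA in 7.8% beside 13.6%. TGANTCA, the AP-1 motif, stood in 6.2% beside 7.8%, CATGTG, the core of the M-box of pigment genes, in 12.5% beside 14.2%, and the E-box CACGTG in 0.0% beside 7.2%. All 5 motifs were searched on both strands. The member windows had a median G and C content of 59.1%, the windows of all genes 52.7%, which moves with the GC box and was not taken into account. None of the motifs in the printed windows overlapped another.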

How the data were processed

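Gene expression in the sorted B16-F10 populations was measured on 4 one-colour arrays, from 200 ng RNA each. The authors deposited the scanner output, in which 43020 spots other than controls carry a background-corrected Cy3 intensity, and their own processed log2 values. Against the scanner intensities, the deposited log2 table followed a slope of 0.999 to 1.001, relative to each array's 75th percentile and centred on each probe's median, with 93.5% to 100.0% of 39297 probes within 0.01. The file headers name Feature Extraction 11.0.1.1, the submitters' processing notes 10.7.3.1.

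After a floor at 0.01 (0 spots), log2 intensities were expressed against the 75th percentile of the array they came from. Flagged spots (207 to 232 per array) were left out, and spots of a probe were averaged. Accessions of 27421 of 39429 probes matched a symbol of the RefSeq table for GRCm38.p6, and the other 12008 probes were left out. The brightest probe stood for a gene. Genes well above background on both replicates of either population entered limma 3.58.1 (lmFit, eBayes; R 4.3.3) with Benjamini-Hochberg adjustment over 11955 genes and a threshold of 0.05. Simulated data served to test the fit.

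The members and gene lists were chosen with earlier results of these data known. Of the genes that met the rule, 1 is not reported here, and the counts of members leave it out. Named were all members past the filter that passed the test or 2-fold. All integrins, laminin chains and type I, IV, V, VI, XVIII and XXVII collagens were named as well, and other collagens by kind. Genes of the lists were named where they passed the test or 2-fold. Nid1, Efemp2, Thbs3, Fn1, Cd44, Dag1, the other collagens named and single markers were added after their values were seen. Alternatives were another background correction, other scalings, filters, probe rules and tests, the authors' values, each array left out and a replicate block. With 1 slide and 1 scan, neither could serve as a block. Python 3.11.15 was used with matplotlib 3.10.9, pandas 2.3.3, numpy 2.4.6 and scipy 1.17.1.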

Additional observations from a re-analysis of the deposited data

How the results depend on the processing

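Of the 6 genes past the test (4 in favour of Met-low and 2 of Met-high cells), the normexp correction left 3 and 1, the percentile over detected probes 4 and 1, and the mean of a gene's probes 1 in favour of Met-high cells, as did every probe by itself and a mean-variance trend. The trend called 5 in favour of Met-low cells, with Col5a3 and Itgb5 gained and Col14a1 lost. The mean of a gene's probes gained Col20a1 and lost Col14a1, Col9a1 and Col4a4. With no filter on dim probes 0 and 0 members, 7 genes of all and 0 genes of the lists were called. A Student's t-test of each gene gave 0 and 0 members, 0 list genes and 1 gene of all after adjustment. At an unadjusted p under 0.05 it gave 2211 genes of all and 10 list genes. The paper lists this test for 2-group comparisons in general, and selected array genes by a fold difference without naming a test. The list genes called were 4 with the percentile over detected probes and 1 with the mean of a gene's probes. At 2-fold, normexp gave 3 and 0 members, the percentile over detected probes 2 and no filter 8 in favour of Met-high cells. The share of all genes at 2-fold was not taken in these settings or with arrays left out, so these counts have no share to stand beside.

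With 1 array left out, the lone array of its population being assumed to vary like the others, 2 to 4 members were called in favour of Met-low (4 without Met-low replicate 2, 2 without each other array) and 0 to 4 in favour of Met-high cells, 5 to 10 and 2 to 8 passed 2-fold, 2 to 5 list genes were called, and 636 to 891 genes of all. Col6a1, Col1a1, Col6a6, Itgb7, Col18a1, Col3a1 and Itga11 were called in single such fits, since 1 array above background then admits a gene.

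The sign turned for Lamb2 (normexp -0.07, quantile -0.02, percentile over detected probes -0.15, authors' values -0.01), Col4a5 (percentile over detected probes -0.14, authors' values -0.0009), Col9a2 (percentile over detected probes -0.10) and Itgal (mean of probes -0.02). With arrays left out it also turned, over ranges of -0.12 to 0.92 for Col11a2, -0.10 to 0.46 for Col4a1, -0.50 to 0.31 for Col4a2, -0.14 to 0.15 for Col4a5, -0.04 to 0.13 for Col9a2, -0.54 to 0.16 for Itga1, -0.25 to 0.11 for Itga9, -0.03 to 0.58 for Itgb2, -0.22 to 0.04 for Lama4 and -0.29 to 0.30 for Lamb2. The cause was not tested.

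Replicates are numbered 1 and 2 in both populations, and the labels do not say that a number marks a shared preparation. The difference of replicate 1 minus 2 correlated between the populations at r = 0.54 across 11944 genes, which are not independent. With the replicate number as a block, 14 of the 38 tested members were called in favour of Met-low and 8 in favour of Met-high cells. Of all 11955 genes tested, 3545 were called, 1578 in favour of Met-low and 1967 in favour of Met-high cells. Called among the list genes were 19. Signal over background limits Col10a1, Loxl1, other dim members that were tested and all members on no array, whose ratios depend on the background correction. Under normexp the log2 ratio was -0.28 for Itga8, -0.20 for Col20a1 and -0.32 for Col2a1. In the main fit these were -1.02, -0.82 and -0.90. Across the alternatives the ratio of Lamc3 fell as low as 0.62, from 1.2.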

Other observations

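Several members were far above background on a single replicate while the other replicate of the same population lay at background. Lamb3, a laminin beta chain, read -3.15 and -7.28 in Met-low cells and -3.74 and -7.12 in Met-high cells, so that replicate 1 of each population stood apart from replicate 2. Itga11 read -6.94 and -6.33 in Met-low cells and -3.40 and -7.56 in Met-high cells. Col3a1 read -6.86 and -6.77 in Met-low cells and -4.00 and -7.44 in Met-high cells, and Col18a1 -6.69 and -6.12 in Met-low cells and -4.03 and -7.20 in Met-high cells. Itgb7, a leukocyte integrin, read -5.32 and -5.26 in Met-low cells and -4.92 and -3.54 in Met-high cells. None of these 5 genes was tested.

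Col6a1 read -4.89 and -4.58 in Met-low cells and -7.00 and -7.15 in Met-high cells, without overlap, but only Met-low replicate 2 was marked well above background. Its partner Col6a2 read -4.96 and -5.69 in Met-low cells and -5.28 and -4.83 in Met-high cells, which overlap. Lama2, on no array, read -6.15 and -6.03 in Met-low cells and -6.95 and -6.87 in Met-high cells.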
